A study of Neurospora crassa with 2 samples.

Results

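The G protein and cAMP signalling genes described here are the 9 genes *gna-1*, *gna-2*, *gna-3*, *gnb-1*, *gng-1*, *ric8*, *cr-1*, *pkac-1* and *mcb* of the filamentous fungus *Neurospora crassa*. They were chosen by symbol, and all 9 were found among the 10559 genes of the deposited table. The samples were hyphae of the wild type (WT) after 20 hr (DD20) and 12 hr (DD12) in constant darkness in liquid glucose medium, as time points of the circadian cycle. The methods describe the WT as a *bd* strain of mating type *a*, so both time points carry the *bd* allele. *bd*, used to sharpen conidiation bands in clock work, is an allele of the Ras GTPase gene *ras-1*, and RefSeq lists *ras-1* as a synonym of *bd*. Each time point has 1 column of mRNA-seq values, while the study describes duplicate RNA samples that were each pooled from 3 independent samples. Whether a column combines the duplicates is not stated, so no difference below has a replicate check and no p-value was computed.

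A heterotrimeric G protein carries a signal from a receptor in the plasma membrane into the cell. The receptor makes the α subunit exchange GDP for GTP, and the α subunit and the βγ dimer then act on enzymes such as adenylyl cyclase, which makes cAMP. In fungi cAMP binds the regulatory subunit of protein kinase A (PKA) and frees the catalytic subunit. In *Neurospora* this pathway is known for its roles in hyphal growth, aerial hyphae, conidiation and mating, and PKA is known to phosphorylate the clock protein FRQ.

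All values are RPKM, the reads on a gene scaled by the length of its gene model and by the total reads of the library, so levels of different genes can be set side by side. Read totals recovered from the steps between the RPKM values were 29960356 at DD20 and 30712952 at DD12. The log2 ratio of a gene was taken after 1 was added to its RPKM at DD20 and at DD12. Fold values and their 95% intervals (exact Clopper-Pearson, on reads halved as read pairs) are without the added 1 and cover counting error only. A gene was counted as expressed where its RPKM averaged 1 or more over the time points. This held for 7414 genes, with a median log2 ratio of 0.15, and for all 9 members. Where a ratio is ranked among all genes below, or the median of all genes is given, these expressed genes are meant.

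The 9 members spanned about 1 order of magnitude at both time points. The highest was 9.37 times the lowest at DD20, and 8.64 times at DD12. The median member had 26.7 RPKM at DD20 and 22.6 RPKM at DD12, against 12.2 RPKM and 11.1 RPKM for the median of the 7414 expressed genes. At each time point 7 of the 9 members lay above that median. The order at DD20 was *gng-1*, *gnb-1*, *gna-1*, *pkac-1*, *mcb*, *cr-1*, *gna-3*, *gna-2* and *ric8*. It was the same at DD12 except that *ric8* and *gna-2* changed places. *gnb-1* and *gna-1* did not differ beyond counting error at either time point, and neither did *ric8* and *gna-2* at DD12. The intervals of the other neighbours in the order excluded 1, although the bound was close to 1 for *gna-2* over *ric8* at DD20 (1.14, interval 1.0 to 1.30) and for *gna-3* over *ric8* at DD12 (1.15, interval 1.01 to 1.30).

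**Figure D1:**
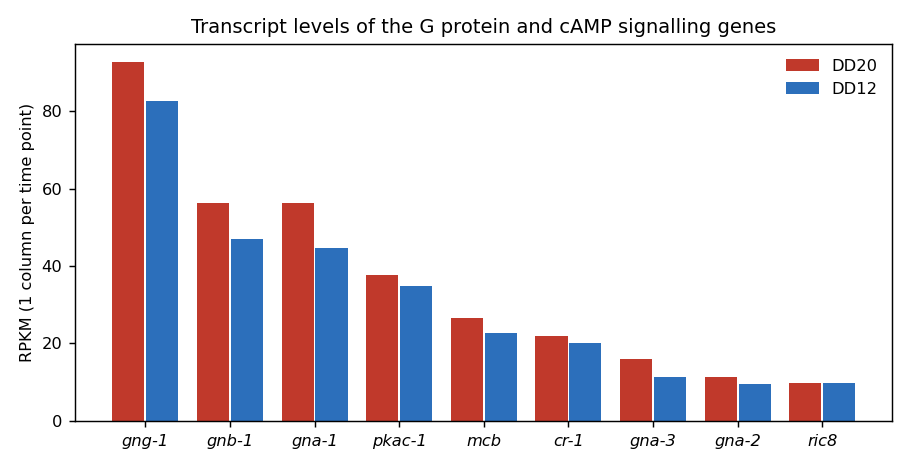
RPKM of the 9 members at DD20 (red) and DD12 (blue), 1 column per time point and ordered by the level at DD20. *gng-1* was highest with 92.7 RPKM at DD20 and 82.6 RPKM at DD12, and *ric8* was lowest at DD20 with 9.90 RPKM.

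Of the 3 α subunit genes, *gna-1* was the most abundant by far. GNA-1 is an α subunit of the Gi type, known to be needed for normal growth and female fertility. Its gene had 56.2 RPKM at DD20, from 4274 reads, and 44.7 RPKM at DD12, from 3487 reads. The level at DD20 was 1.26-fold that at DD12, with an interval of 1.18 to 1.34 (log2 ratio 0.32), above the ratio of 71.1% of the expressed genes.

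*gna-3* encodes the α subunit whose loss is known to cause early and dense conidiation, as the loss of adenylyl cyclase does. It had 16.0 RPKM at DD20, from 1516 reads, and 11.2 RPKM at DD12, from 1089 reads. The fold was 1.43 (interval 1.28 to 1.60) and the log2 ratio 0.48. This was the largest ratio among the 9 members and lay above 85.3% of all genes, yet it was well short of 2-fold.

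*gna-2*, whose product is known mainly for functions that overlap with those of the other α subunits, had 11.3 RPKM at DD20, from 1041 reads, and 9.56 RPKM at DD12, from 901 reads. The fold was 1.18, with an interval of 1.04 to 1.35.

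The α subunit transcripts summed to 83.5 RPKM at DD20 and 65.5 RPKM at DD12. *gna-1* made up 67.3% of the sum at DD20 and 68.3% at DD12. The share of *gna-3* was 19.2% at DD20 and 17.2% at DD12, and that of *gna-2* was 13.6% at DD20 and 14.6% at DD12. Within a time point such proportions do not depend on how the libraries were scaled. *gna-1* was 4.96 times *gna-2* at DD20 (4.51 to 5.47) and 4.68 times at DD12 (4.22 to 5.20). It was 3.50 times *gna-3* at DD20 (3.22 to 3.81) and 3.98 times at DD12 (3.61 to 4.39). *gna-2* was 0.706 of *gna-3* at DD20 (0.630 to 0.790) and 0.851 at DD12 (0.749 to 0.965). The last ratio at DD20 was 0.829 of that at DD12, and its interval of 0.699 to 0.984 excluded 1. The same interval was 0.773 to 1.0 for *gna-1* over *gna-3*, where the upper bound reached 1, and 0.918 to 1.22 for *gna-1* over *gna-2*. Relative to *gna-2*, *gna-3* was thus higher at DD20 than at DD12 by more than counting error. For *gna-1* over *gna-3* the change was similar, 0.879, but its interval just reached 1. A difference between these shifts is therefore not shown.

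The β and γ subunits form a dimer that binds the α subunit, and *Neurospora* mutants of either gene are known to have lower α subunit protein. *gnb-1*, the β subunit gene, had 56.3 RPKM at DD20 and 47.0 RPKM at DD12. The fold was 1.20, with an interval of 1.11 to 1.30. *gng-1*, the γ subunit gene, had 92.7 RPKM at DD20 and 82.6 RPKM at DD12, with a fold of 1.12 and an interval of 1.02 to 1.23. For both genes a pair of lengths gave whole reads, and the shorter length, with the wider interval, was used. For *gnb-1* it was 1560 nt with 2630 reads at DD20 and 2251 at DD12, and the longer was 3120 nt. For *gng-1* it was 673 nt with 1870 reads at DD20 and 1708 at DD12, and the longer was 1346 nt.

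The 2 genes of the dimer were not at equal levels. *gnb-1* was 0.607 of *gng-1* at DD20 (0.558 to 0.661) and 0.569 at DD12 (0.520 to 0.622), and the ratio at DD20 was 1.07 times that at DD12 (0.942 to 1.21). *gnb-1* and *gna-1* were close to 1 to 1, at 1.0 at DD20 (0.934 to 1.07) and 1.05 at DD12 (0.974 to 1.13). This pair was also the nearest of all member pairs when the log2 levels at both time points were compared. Against the sum of the 3 α subunit genes, *gnb-1* stood at 0.674 at DD20 and 0.717 at DD12, and *gng-1* at 1.11 at DD20 and 1.26 at DD12.

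*ric8*, which encodes a cytosolic protein that promotes nucleotide exchange on α subunits without a receptor, was among the least abundant members. It had 9.90 RPKM at DD20, from 858 reads, and 9.79 RPKM at DD12, from 870 reads. The fold was 1.01 with an interval of 0.883 to 1.16. It was the only member whose interval included 1, and its log2 ratio of 0.014 was higher than that of 35.1% of all genes. The level of *gna-1* was 5.68 times that of *ric8* at DD20 (5.11 to 6.31) and 4.57 times at DD12 (4.11 to 5.08). The ratio at DD20 was 1.24 times that at DD12, with an interval of 1.07 to 1.44.

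**Figure D2:**
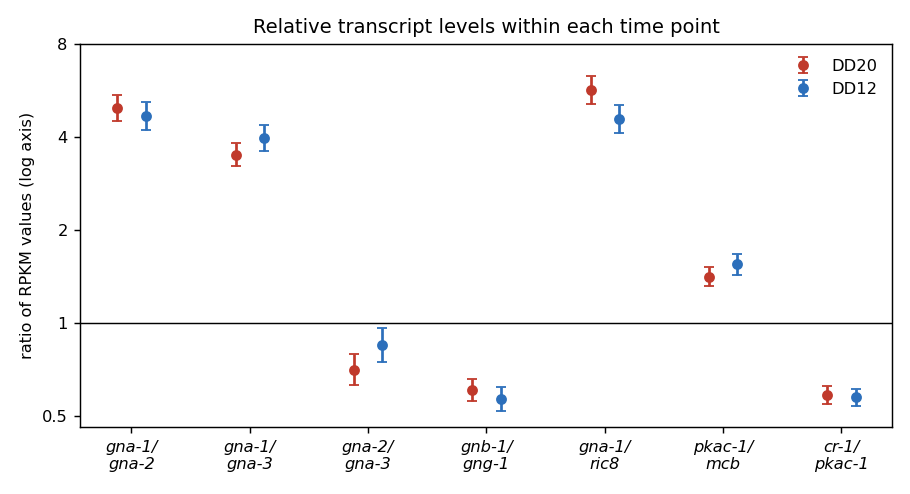
Ratios of RPKM values between members within DD20 (red) and within DD12 (blue), on a log axis, with 95% counting intervals as bars. *gna-1* exceeded the other α subunit genes and *ric8* more than 3-fold at both time points, while *gnb-1*/*gng-1* and *cr-1*/*pkac-1* were near 0.6.

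The 3 members of the cAMP branch spanned a narrower range of levels than the G protein members. Their log2 ratios of 0.11 to 0.23 lay around the median of all genes, 0.15, against 0.16 to 0.48 for the 5 G protein subunit genes. This did not hold for 2 other cAMP genes given below, *pkac-2* (-0.37) and *acon-2* (0.54). *cr-1* encodes adenylyl cyclase, and its mutant, crisp, is known for compact growth with early conidiation. It had 22.0 RPKM at DD20, from 4386 reads, and 20.1 RPKM at DD12, from 4099 reads. Its gene model of 6649 nt was the longest among the members, so its reads were among the most numerous although its level was not. The fold was 1.10 with an interval of 1.03 to 1.17, and the log2 ratio of 0.13 lay above 47.3% of all genes.

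*pkac-1* encodes the main catalytic subunit of PKA. It had 37.7 RPKM at DD20, from 3463 reads, and 35.0 RPKM at DD12, from 3292 reads. The fold was 1.08, and the lower bound of its interval, 1.01 to 1.15, was close to 1.

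*mcb* encodes the regulatory subunit of PKA, which holds the catalytic subunit inactive until cAMP binds. It had 26.7 RPKM at DD20, from 2531 reads, and 22.6 RPKM at DD12, from 2198 reads. The fold was 1.18 (1.09 to 1.28). In RefSeq the span of *mcb* overlaps that of NCU01167, which had 13.1 RPKM at DD20 and 11.9 RPKM at DD12 (log2 ratio 0.13). As the strand handling of the counting is not given in the sources used here, reads in the shared stretch may be counted for either gene. None of the other 8 members overlaps a neighbour in RefSeq.

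*pkac-1* was 1.41 times *mcb* at DD20 (1.31 to 1.52) and 1.55 times at DD12 (1.43 to 1.67). The ratio at DD20 was 0.913 of that at DD12, with an interval of 0.821 to 1.02. *cr-1* was 0.584 of *pkac-1* at DD20 (0.548 to 0.622) and 0.574 at DD12 (0.538 to 0.613), and among the 7 pair ratios drawn in the plot of relative levels this one differed least between the time points (1.02, interval 0.928 to 1.11). The interval of the change between the time points excluded 1 for 2 of the 7, *gna-2*/*gna-3* and *gna-1*/*ric8*. Some pairs across the G protein and cAMP genes, picked after their values were seen, shifted as well. *cr-1* was 1.37 times *gna-3* at DD20 (1.26 to 1.49) and 1.79 times at DD12 (1.62 to 1.97), so that the ratio at DD20 was 0.768 of that at DD12 (0.676 to 0.872). The ratio at DD20 was 1.16 times that at DD12 for *gna-1* over *pkac-1* (1.06 to 1.28) and 1.15 times for *gna-1* over *cr-1* (1.05 to 1.25). The intervals of these changes were not adjusted for the number of pairs.

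Across the 9 members, log2 ratios ranged from 0.014 to 0.48 with a median of 0.22. A difference of 2-fold or more was reached by 0 of 9 members in either direction. Among the 7414 expressed genes, 55 (0.742%) had at least 2-fold more RPKM at DD20, and 173 (2.33%) had at least 2-fold more at DD12. With the columns rescaled without the 10 most abundant genes these numbers were 27 and 269, so that the share higher at DD20 was 9.12% instead of 24.1%. On the log2 scale, the intervals of 8 of the 9 members lay above 0, against 41.6% of the 7337 expressed genes with recovered reads. They lay below 0 for 0 of 9 members, against 17.2% of those genes. The median of all genes also lay above 0, however. Set against that median (a fold of 1.13 without the added 1), the interval was above it for 2 of the 9 members, *gna-1* and *gna-3*, and below it for 0. With the shorter lengths used here, the shares of those 7337 genes were 25.5% above and 26.5% below. The members' share above was thus near that of genes in general. With the longer length of *gnb-1*, its log2 interval (0.179 to 0.342) lay above the median (0.170) as well. This comparison with the median was added after the values were seen. By role, all 5 subunit genes of the G protein had a log2 ratio above the median of all genes, with a median of 0.26. Of the 3 cAMP members only *mcb* did. *gng-1* exceeded the median of all genes by only 0.015, and lay below it with 0.1 added in place of 1.

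The directions of the smaller differences depended on the scaling. Rescaling without the 10 most abundant genes moved the median of all genes by -0.18. It left *gna-1* (0.13), *gna-3* (0.29), *gnb-1*, *gna-2* and *mcb* above 0, and placed *gng-1*, *ric8*, *cr-1* and *pkac-1* below 0.

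**Figure D3:**
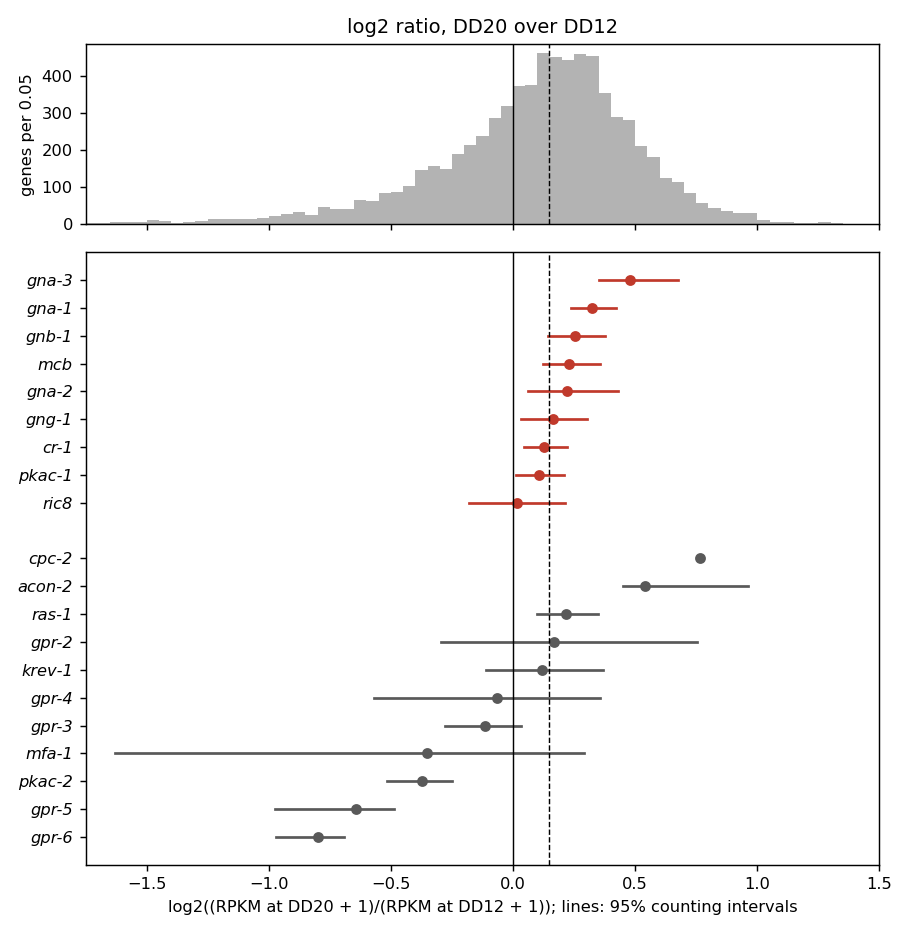
Top, log2 ratios of the expressed genes that lie within the axis, as genes per bin of 0.05. Bottom, log2 ratios of the members (red points) and of other genes of the pathway (grey points), with 95% counting intervals taken without the added 1. The solid line marks 0 and the dashed line the median of all genes, 0.15. *cpc-2* has no interval because its reads could not be recovered. In the columns as deposited the members lie between 0.014 and 0.48, and *gpr-6*, *gpr-5* and *pkac-2* lie below 0.

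Other genes of the pathway were taken from a list of 68 symbols, of which 16 were found (by synonym for *ras-1*), and 0 of the 9 *rgs* symbols matched. Many genes carry only a locus number, so a symbol without a match need not mean an absent gene. Of the 16 found, 11 were expressed by the same measure. In this set, 5 were higher and 6 were lower at DD20, with a median log2 ratio of -0.064, while 66.2% of the 7414 expressed genes were higher at DD20. Of the 11, 0 reached 2-fold in either direction. The counting interval lay above 0 for 2 of them (*acon-2* and *ras-1*) and below 0 for 3 (*gpr-5*, *gpr-6* and *pkac-2*). *cpc-2* had no interval. Of the 7337 expressed genes with recovered reads, 41.6% had an interval above 0 and 17.2% below 0. Of these 11 genes 4 lay above the median of all genes, against 6 of the 9 members.

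*pkac-2*, a second gene for a PKA catalytic subunit, was lower at DD20, unlike *pkac-1* in the columns as deposited. It had 37.2 RPKM at DD20 and 48.5 RPKM at DD12, a fold of 0.767 (0.699 to 0.842), and its log2 ratio of -0.37 lay above only 11.8% of all genes. As for *gnb-1*, 2 lengths gave whole reads for *pkac-2*, and the shorter was used for its intervals. *pkac-2* was 0.987 of *pkac-1* at DD20 (0.907 to 1.07), which is within counting error, and it was 1.39 times *pkac-1* at DD12 (1.28 to 1.5). The ratio at DD20 was 0.711 of that at DD12 (0.633 to 0.798), a comparison chosen after the values were seen. Together the catalytic subunit genes stood at 2.81 times *mcb* at DD20 and 3.69 times at DD12. *acon-2*, described as a gene for a cAMP phosphodiesterase, which breaks cAMP down, had 4.13 RPKM at DD20, from 665 reads, and 2.53 RPKM at DD12, from 418 reads, with a fold of 1.63 (1.37 to 1.95).

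Of 47 receptor symbols on the list, 9 were found in the table, and 5 of these counted as expressed. *gpr-3* was the most abundant at DD20, with 18.3 RPKM at DD20 and 19.9 RPKM at DD12. *gpr-6* had 17.8 RPKM at DD20, from 1325 reads, and 31.7 RPKM at DD12, from 2415 reads. Its fold of 0.562 (0.511 to 0.619) was the lowest among these receptors, and its log2 ratio of -0.80 lay above only 3.84% of all genes. *gpr-5* had 5.90 RPKM at DD20 and 9.78 RPKM at DD12, with a fold of 0.603 (0.509 to 0.714). *gpr-2* had the highest log2 ratio of these 5 receptors, 0.17, from 2.96 RPKM at DD20 and 2.53 RPKM at DD12, with an interval of the fold of 0.815 to 1.68. The pheromone receptor genes *pre-1* and *pre-2*, the opsin gene *nop-1* and *gpr-1* were all under 1 RPKM at both time points.

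*cpc-2*, which encodes a β-like WD repeat protein that also sits on ribosomes, was far more abundant than any member. It had 1387 RPKM at DD20 and 817 RPKM at DD12, a fold of 1.70, and its reads could not be recovered. *ras-1*, the gene that carries the *bd* allele in this strain, had 61.7 RPKM at DD20 and 52.9 RPKM at DD12 (fold 1.17, interval 1.07 to 1.27). Its interval also rests on the shorter of 2 lengths. *krev-1*, a Rap-like GTPase gene, had 9.88 RPKM at DD20 and 9.03 RPKM at DD12 (fold 1.09, interval 0.927 to 1.29).

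**Figure D4:**
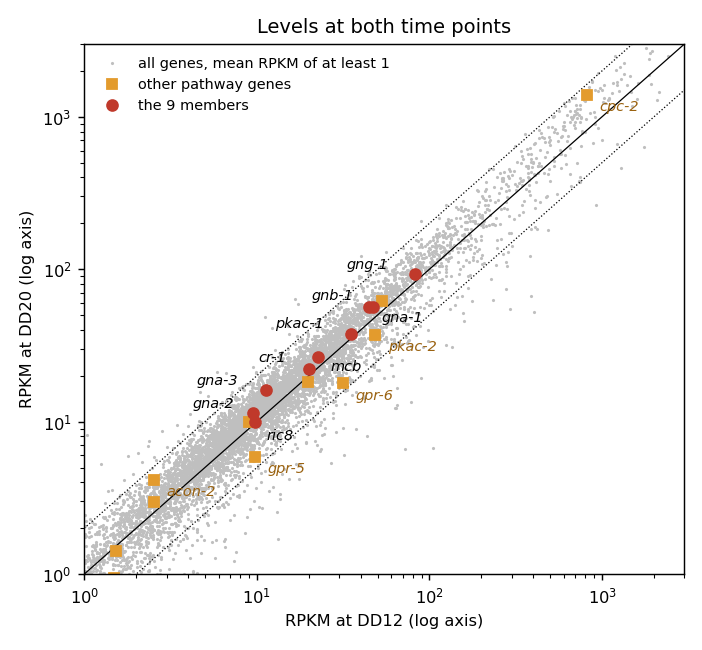
RPKM at DD20 against RPKM at DD12 on log axes for the expressed genes (grey), the members (red circles) and other genes of the pathway (orange squares). The lowest and the most abundant genes lie outside the axes. The solid line marks equal levels and the dotted lines 2-fold differences. In the columns as deposited all 9 members lie between the dotted lines, on or above the solid line, and *gpr-6*, *gpr-5* and *pkac-2* lie below it.

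The labels give the tissue as hyphae. Of 6 genes expressed in conidiation, 5 were lower at DD20, as were 2505 of the 7414 expressed genes. They were *eas* (7682 RPKM at DD20 and 9199 RPKM at DD12), *con-6* (1.64 RPKM at DD20 and 6.43 RPKM at DD12), *con-10* (0.790 RPKM at DD20 and 2.31 RPKM at DD12), and *con-8* and *con-13*, which did not count as expressed, while *fl* had 7.72 RPKM at DD20 and 6.90 RPKM at DD12. Without *eas*, the summed level of these genes was 10.5 RPKM at DD20 and 16.9 RPKM at DD12. Few reads lay behind *con-10* (4 at DD20 and 12 at DD12), *con-8* (15 and 42) and *con-13* (1 and 10). Whether a difference in conidiation had a part in the differences of the members was not tested, and in such bulk samples fewer cells of a type and less RNA per cell cannot be told apart. For the mating type, the *mat A-1* gene was listed at 0 at both time points, and the pheromone precursor genes were low. *mfa-1*, of mating type a, had 33 reads at DD20 and 53 at DD12, and *ccg-4*, of mating type A, was at 0.0478 RPKM at DD20 and 0.0466 RPKM at DD12.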

How the data were processed

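The authors deposited RPKM values for mRNA-seq of polyA RNA from WT hyphae at DD20 and DD12, in 1 table with 1 column per time point. The submitters' processing notes name CASAVA 1.8 and HISAT. The counting tool, strand handling, gene models and genome build are not given in the sources used here, so RefSeq (assembly NC12) was used for names, spans and overlaps only, and no sequences were used. All sample columns were used, assigned by title. The members were matched on the gene symbols of the table.

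Library totals and gene lengths were recovered from the steps between RPKM values, with a search over lengths from 30 nt up to the span in RefSeq. A length was kept where the reads at DD20 and at DD12 were both within 0.003 of a whole number. The length was unique for 7 of the 9 members, and otherwise the shortest was used. Of 8726 genes tried, 8681 had such a length. Reads were halved because mates of a pair may be counted separately. Ratios used a pseudocount of 1 and expressed genes (RPKM averaging 1 or more), and genes were counted at 2-fold. With 1 column per time point no test was run, and an interval that excludes 1 compares columns, not conditions.

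The members, gene lists and named genes were chosen with earlier results of these data known. The named genes were the members and, in each class of the other pathway genes, those at 2-fold or more, the highest, the lowest and the most abundant. *gpr-5*, *pkac-2* over *pkac-1*, *gnb-1* over *gna-1*, *cr-1* over *gna-3*, *gna-1* over *pkac-1* and *cr-1*, and genes under 1 RPKM were added. Alternatives were pseudocounts of 0.1 and 5, centred ratios, rescaled columns, other filters, reads taken as independent and, added after seeing the data, the longest length. The steps were tested on simulated data. Python 3.11.15, pandas 2.3.3, numpy 2.4.6, scipy 1.17.1 and matplotlib 3.10.9 were used.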

Additional observations from a re-analysis of the deposited data

How the results depend on the processing

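No paired analysis was possible because there is only 1 value per gene at each time point, which also leaves no replicate to omit. The member median log2 ratio of 0.22 became 0.074 with centred ratios and 0.037 with columns rescaled without the 10 most abundant genes. The median of the other pathway genes, -0.064, became -0.21 and -0.18 in the same settings, and 0.025 with no filter on low values. The count of genes at least 2-fold higher at DD20 was 55 as reported. It became 99 when 0.1 was added to the RPKM, 29 when 5 was added, 31 after centring and 27 after that rescaling. The count for DD12 was 173, and became 241 when 0.1 was added and 91 when 5 was added. It was 256 after centring and 269 after that rescaling. With an RPKM averaging 10 or more it was 102, where fewer genes enter (4127 against 7414). The other causes were not tested. In the 5 settings that apply to single genes, 0 of 9 members reached 2-fold, and 15 of 45 member values lay outside the counting interval, in the centred ratios or that rescaling. The members below 0 were *ric8*, *cr-1* and *pkac-1* with centred ratios, *ric8* (-0.041) with columns rescaled to the same sum, and *gng-1* (-0.034), *ric8*, *cr-1* and *pkac-1* without the 10 most abundant genes. The numbers of genes with an interval above or below 0 stayed within 1.5 times with reads taken as independent (3565 and 1515, against 3051 and 1264) and with the longest length (3257 and 1347). Ratios of levels per coding length were not run, since no protein lengths were used here. Ratios between genes depend on the authors' gene models.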

Other observations

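Over the 2 columns, the gene with a symbol nearest to *gna-1* in log2(RPKM + 1) was *pef-1*, with 54.2 RPKM at DD20 and 44.5 RPKM at DD12 (distance 0.050). The nearest to *cr-1* was *ff-7*, with 21.6 RPKM at DD20 and 20.4 RPKM at DD12, and the nearest to *pkac-1* was *nic-4*, with 39.6 RPKM at DD20 and 35.7 RPKM at DD12. With 2 columns many genes lie this close.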
